A study of Mus musculus with 5 samples.

Results

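CD45hi cells of remyelinating lesions are the CD11b+ Ly6G- CD3- cells with high surface CD45 that were sorted from demyelinated corpus callosum, and the sample labels name them monocyte-derived macrophages. They are described here from 2 of 5 libraries, named LPC_130 and LPC_131 in the sample titles. The genes described are the 1051 of 24984 genes in the count table that had 10 or more raw counts in both of these libraries, called core genes below. All libraries came from male WT C57BL/6J mice aged 10 weeks whose corpus callosum was injected with 2 µl of 1% LPC (lysolecithin, which destroys the myelin where it is injected), and cells were recovered 10 days post LPC. The other 3 libraries (LPC_127, LPC_128 and LPC_129) hold CD45lo microglia of the same kind of lesion. CD45 level is the only labeled difference between the gates, there was no unlesioned tissue among these 5 libraries, and libraries were made by an ultra-low input method because few CD45hi cells could be sorted. The study counts its replicates as mice, while the sample labels do not say how many mice went into a library.

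Classical monocytes are made in bone marrow, enter injured tissue from blood by means of the chemokine receptor CCR2, and mature there into macrophages that lose much of their monocyte program. In a demyelinated lesion such macrophages take up myelin debris, digest it in lysosomes, export its cholesterol, present antigen and secrete matrix proteins and growth factors that act on oligodendrocyte precursors. Microglia, the resident macrophages of the brain, share most of this machinery, and the level of CD45 on the cell surface is the usual way to part them from cells of blood origin.

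The CD45hi libraries held 3417150 (library LPC_130) and 6514611 (library LPC_131) counts assigned to genes, against 5890081 to 9021700 in microglia. Library LPC_130 had 1392 genes with 10 or more counts and library LPC_131 had 4230, against 5994 to 11653 in microglia. The 10 genes with most counts took 50.1% of library LPC_130 and 31.5% of library LPC_131, against 14.1% to 40.6% in microglia. A count of 0 allows a level of up to 0.878 CPM (counts scaled to a common library total) in library LPC_130 and 0.461 CPM in library LPC_131, taking 3 counts as the limit, and amplified reads are not independent molecules, so such limits and the intervals below cover counting error only. In these bulk libraries fewer cells of a type and less RNA per cell cannot be told apart.

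The 2 CD45hi libraries shared a small common set of genes, and within it their levels differed widely. Core genes held 88.8% of the counts of library LPC_130 (95% exact binomial interval 88.7% to 88.8%) and 65.7% of those of library LPC_131 (65.7% to 65.8%). Of the 1051 core genes 1011 are annotated as protein coding. Core genes were 4.21% of all genes in the count table, a share to set beside each list's count below. The core set was mostly shared with microglia: 982 core genes (93.4%) also had 10 or more counts in all 3 microglia libraries. Only 5 had fewer than 10 in every microglia library. Levels are given as FPKM, fragments scaled by gene length and library total, which allows genes of unequal length to be compared. Across the 1051 core genes, which are not independent replicates and share library depth, Spearman's rho of FPKM between the libraries was 0.28 and Pearson's r of log2 FPKM was 0.31. Only 182 core genes (17.3%) lay within 2-fold of each other and 338 (32.2%) within 4-fold, whereas 455 (43.3%) were more than 16-fold apart. Of those 455 genes 350 were higher in library LPC_131 and 105 in library LPC_130, and the median of the log2 ratio of library LPC_130 to library LPC_131 was −2.02. Of all 1051 core genes 699 were higher in library LPC_131. Outside the core set 3179 genes had 10 or more counts in library LPC_131 alone and 341 in library LPC_130 alone. The lean of a list to library LPC_131 has to be read beside these numbers. The 100 genes with the highest FPKM in each library had 22 genes in common, and the top 500 had 108 in common. Library LPC_131 was closer in rank to each microglia library (rho 0.42 to 0.59 over core genes) than library LPC_130 was (0.14 to 0.29). Between the microglia libraries rho was 0.57 to 0.78 over the same genes.

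**Figure D1:**
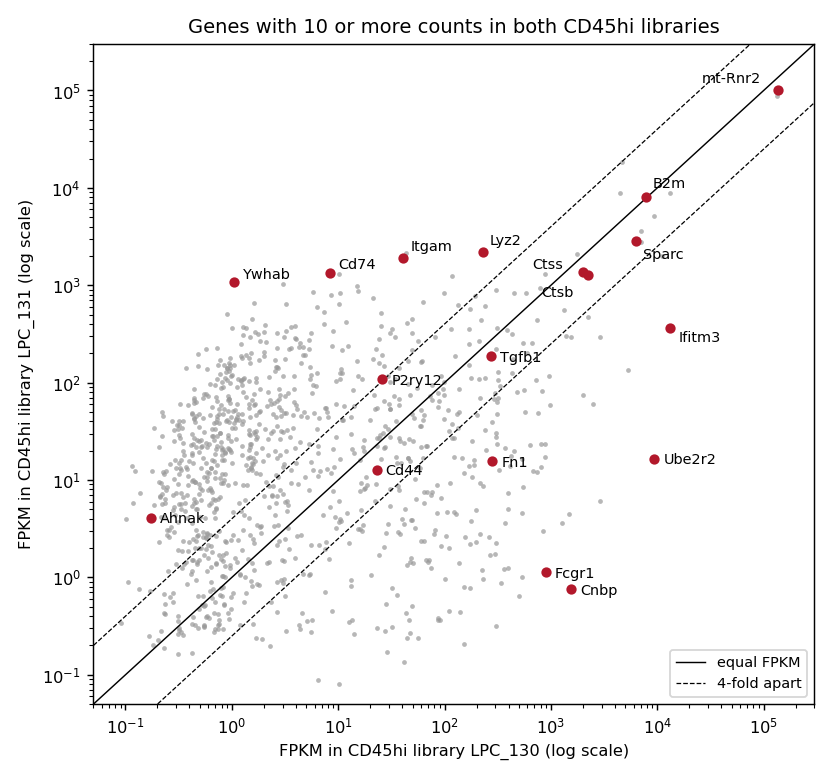
FPKM of the 1051 core genes in CD45hi library LPC_130 (x axis) and library LPC_131 (y axis), both on log scales, 1 point per gene, with the line of equal FPKM and dashed lines 4-fold from it. B2m, Sparc, Ctss and Ctsb lie between the dashed lines at the upper end, while Ywhab, Cd74 and Itgam lie far on the side of library LPC_131, and Ube2r2, Cnbp and Fcgr1 on that of library LPC_130.

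The widest gaps within the core set show how much a level can rest on 1 library. Ube2r2, a ubiquitin-conjugating enzyme, had 134114 counts in library LPC_130, the most of any gene that mitochondria do not encode, and 449 in library LPC_131. Cnbp, a nucleic-acid-binding zinc finger protein, had 15969 and 15 counts, a 2030-fold difference in FPKM. Ywhab, a 14-3-3 adaptor protein, went the other way, with 12 counts in library LPC_130 and 23588 in library LPC_131 (1031-fold in FPKM). The count minimum itself cut through such genes, since 86 core genes stood at exactly 10 counts in a library and 113 further genes missed by 1 count, with 9 in a library. The TAM receptor gene Axl entered with 10 and 4530 counts, whereas the kinase gene Jak1 stayed out with 9 and 7410. Library LPC_130 set most of these limits, with 392 core genes at 10 to 19 counts there and 86 in library LPC_131.

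Genes that were abundant in both libraries were led by antigen presentation, matrix, lysosomal protease and macrophage surface genes. Genes were ranked by FPKM among all 24984, and each was placed by the worse of its ranks in the 2 libraries, leaving out mitochondrially encoded, ribosomal protein and predicted genes. B2m, the light chain of MHC class I, came first, at 7797 FPKM in library LPC_130 and 8115 FPKM in library LPC_131 (ranks 8 and 6), which differ 1.04-fold. Sparc, a secreted matrix-binding glycoprotein, came next, at 6271 and 2857 FPKM (ranks 11 and 9). Mir6236, a locus annotated as a miRNA gene, followed, at 11042 and 2010 FPKM.

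Cathepsins, the proteases of the lysosome, followed. Ctsb had 2218 FPKM in library LPC_130 and 1267 in library LPC_131 and ranked 21 in both. Ctss, which also trims the invariant chain of MHC class II, had 1999 and 1356 FPKM, and the aspartic protease Ctsd had 1764 and 2086 FPKM. Means were 1743 ± 672 FPKM for Ctsb, 1677 ± 454 for Ctss and 1925 ± 227 for Ctsd (SD, n = 2). All 3 cathepsins lay within 2-fold between the libraries, as did 60 of the 170 core genes with 500 or more counts in both (35.3%), and ranking by the worse of both ranks favors such genes.

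Myeloid signaling and membrane genes made up most of the rest. Tyrobp, the adaptor DAP12 that relays signals of receptors such as TREM2, had 796 and 938 FPKM. Laptm5, a lysosomal membrane protein of hematopoietic cells, had 454 and 828 FPKM, and Csf1r, the receptor that keeps macrophages alive, had 220 and 438 FPKM. Rasgrp3, an exchange factor for Ras, had 740 and 435 FPKM, and Cmklr1, the chemerin receptor, had 432 and 313 FPKM. These 5 genes also lay within 2-fold between the libraries, as did Itm2b, a membrane protein, at 311 and 364 FPKM, and Ly6e, a GPI-anchored surface protein, at 387 and 346 FPKM.

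Others of the 20 leading genes were unequal. Serinc3, a membrane protein that microglia express strongly, had 1339 and 559 FPKM, and Selenop, which encodes the selenium carrier selenoprotein P, had 2252 and 474 FPKM. Apoe, the lipid carrier apolipoprotein E, had 306 and 900 FPKM. Lyz2, the macrophage lysozyme, had 228 and 2191 FPKM, 9.62-fold higher in library LPC_131. Ifitm3, an interferon-induced membrane protein, had 13071 and 366 FPKM, 35.7-fold higher in library LPC_130. Rac1, a GTPase that drives the actin changes of engulfment, had 1531 and 293 FPKM, and CT010467.1, annotated as ribosomal RNA, had 2864 and 297 FPKM.

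**Figure D2:**
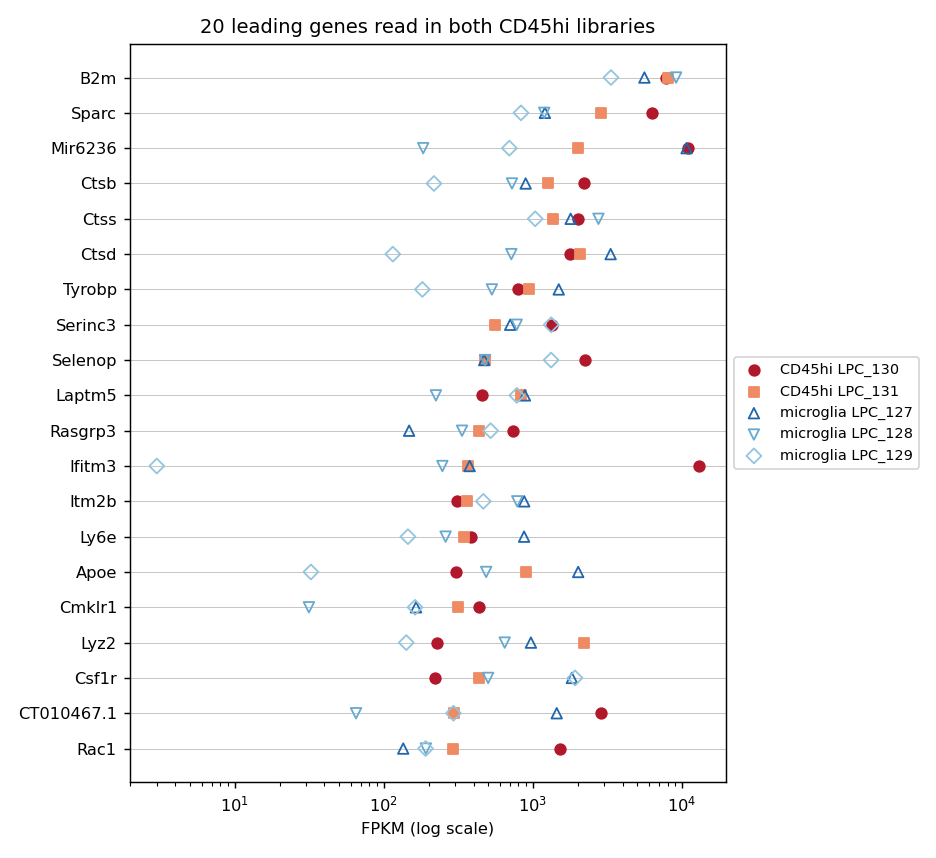
FPKM (x axis, log scale) of the 20 leading core genes (rows, in order of the worse rank) in CD45hi libraries LPC_130 and LPC_131 (filled symbols) and microglia libraries LPC_127, LPC_128 and LPC_129 (open symbols). B2m, Ctsd, Tyrobp, Itm2b and Ly6e have nearly equal levels in both CD45hi libraries, Ifitm3 and Lyz2 do not, and both CD45hi symbols lie to the right of all microglia symbols for Sparc, Ctsb, Cmklr1 and Rac1.

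The promoters of 3 of these genes are shown because all 3 were abundant and near equal in both libraries and because each holds a motif of a factor known in macrophages. Each window runs from 250 bases before to 50 bases after the annotated start (RefSeq, GRCm38.p6), on the strand of the gene. PU.1 is the main transcription factor of myeloid cells, IRF proteins drive interferon-responsive genes, and the CLEAR element is bound by TFEB, which controls lysosomal genes. Capitals mark matches on either strand to GAGGAAGT (PU.1), to the IRF motif (2 GAAA runs 2 bases apart) or to TCACGTGA (CLEAR).
Ctss, chr3:95526536-95526835, + strand: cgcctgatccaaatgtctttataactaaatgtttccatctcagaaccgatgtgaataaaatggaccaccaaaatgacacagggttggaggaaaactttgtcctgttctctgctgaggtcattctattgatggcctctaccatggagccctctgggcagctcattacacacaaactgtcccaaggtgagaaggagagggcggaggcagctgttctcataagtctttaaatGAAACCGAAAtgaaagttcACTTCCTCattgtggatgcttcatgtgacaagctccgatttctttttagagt
B2m, chr2:122147437-122147736, + strand: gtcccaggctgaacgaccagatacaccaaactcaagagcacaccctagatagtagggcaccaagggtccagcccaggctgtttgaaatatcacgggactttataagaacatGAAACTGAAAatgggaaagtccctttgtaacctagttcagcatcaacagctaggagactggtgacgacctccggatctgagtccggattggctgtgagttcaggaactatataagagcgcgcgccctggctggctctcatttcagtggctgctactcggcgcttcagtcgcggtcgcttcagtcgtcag
Ctsd, chr7:142387778-142388077, − strand: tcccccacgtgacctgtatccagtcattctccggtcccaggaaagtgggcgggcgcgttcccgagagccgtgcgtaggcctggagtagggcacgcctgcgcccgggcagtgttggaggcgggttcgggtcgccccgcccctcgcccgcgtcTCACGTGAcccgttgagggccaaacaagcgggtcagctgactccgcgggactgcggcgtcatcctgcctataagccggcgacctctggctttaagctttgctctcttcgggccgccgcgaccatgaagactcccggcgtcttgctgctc
Ctss holds an IRF match at position −21 and a PU.1 match, on the other strand, that starts at position −2, counted from the start site. B2m holds an IRF match at position −139, and Ctsd a CLEAR match at position −99. Among the 808 core genes with a promoter in the RefSeq table, 4.33% held the PU.1 motif, 3.84% the IRF motif and 3.22% the CLEAR motif, against 3.28%, 3.49% and 1.01% of the 27025 promoters in all. The matches of Ctss and Ctsd are not typical of the lysosome list. No such share was computed for antigen presentation genes such as B2m. Of 18 core lysosome promoters 2 held the PU.1 motif, 2 the IRF motif and 1 the CLEAR motif. Of 10 core myeloid identity promoters 0, 1 and 1 did. The motifs were chosen after the sequences were seen, and a match is a run of letters, not a site shown to be bound.

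The 5 genes given as markers of the population were all core genes, but they were not equally secure. Tgfb1, the ligand TGF-β1, had 4730 and 6120 counts (275 and 186 FPKM) in CD45hi libraries LPC_130 and LPC_131, against 1709, 318 and 2491 counts (51.1, 6.99 and 83.9 FPKM) in microglia. Cd44, the hyaluronan receptor, had 531 and 559 counts (22.9 and 12.7 FPKM), against 164, 79 and 1 counts (3.65, 1.29 and 0.0251 FPKM) in microglia. Both genes were similar in the 2 CD45hi libraries and higher in each of them than in every microglia library.

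Ahnak, a giant scaffold protein of the membrane skeleton, had 11 and 494 counts (0.174 and 4.09 FPKM) in CD45hi cells, against 3, 1 and 0 counts in microglia. Fn1, fibronectin, had 11241 and 1189 counts (282 and 15.6 FPKM), against 1865, 627 and 69 counts (24.1, 5.95 and 1.00 FPKM) in microglia. Itgam, the CD11b chain on which all cells were sorted, had 699 and 62696 counts (40.7 and 1916 FPKM), against 32650, 63066 and 25955 counts (980, 1391 and 877 FPKM) in microglia. The groups overlapped for Fn1 and Itgam, Itgam was 47.0-fold higher in library LPC_131 than in library LPC_130, and Ahnak rested almost wholly on library LPC_131. In GRCm38 coordinates Tgfb1 lies at chr7:25687002-25705077, Cd44 at chr2:102811141-102901665, Ahnak at chr19:8989284-9076914, Fn1 at chr1:71585520-71653200 and Itgam at chr7:128062640-128118491.

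The label was checked against lists of myeloid, monocyte and microglia genes. Of 20 genes of general myeloid identity 15 were core, against 4.21% of all genes in the count table. They were led by Tyrobp, Laptm5, Csf1r, the fractalkine receptor Cx3cr1 (4895 and 3789 counts) and the Fc receptor γ chain Fcer1g (32.1 and 353 FPKM). Several were barely core in library LPC_130, such as Coro1a and Runx1 with 12 counts each and Cybb with 20. Microglia held these genes too, so they do not tell the 2 gates apart. The CD45 gene Ptprc, whose protein defined the gate, had 2349 and 3217 counts in CD45hi cells, against 4887, 8412 and 14069 in microglia. Relative to library totals both CD45hi libraries lay below every microglia library for it, as they did for 48.0% of all genes tested. Its log2 fold change with TMM scaling was 2.70 (edgeR, adjusted p = 0.567). Spi1, which encodes PU.1, was just outside the core set, with 8 and 27 counts, against 957, 469 and 2142 in microglia. The list took 0.623% and 0.996% of CD45hi counts, against 2.50%, 1.24% and 2.38% in microglia, below every microglia library.

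Of the genes that define blood monocytes few were read in both libraries. Ccr2 had 0 counts in both CD45hi libraries, against 12, 52 and 0 in microglia, and Chil3, Plac8, F13a1, S100a6, S100a10 and Anxa1 were also at 0 in both. Ly6c1, Ly6c2 and Napsa are listed at 0 FPKM in all 5 libraries. Of 26 classical monocyte genes with a row in the count table, 3 were core (Ifitm3, Lyz2 and the integrin chain Itga4 with 33 and 950 counts), 2 had 10 or more counts in library LPC_130 alone, 5 in library LPC_131 alone, and 16 had fewer than 10 in both. The core share of the list was 11.5%, against 4.21% of all genes in the count table. Vcan, a large proteoglycan, had 8006 and 0 counts, against 12, 2 and 0 in microglia, and Gapt, a membrane adaptor, had 4884 and 0, against 0 in each microglia library. In library LPC_131 alone stood Cd14 (4 and 1665 counts), the galectin gene Lgals3 (0 and 682) and S100a11 (0 and 702). The list nevertheless took a larger share of counts in both CD45hi libraries than in any microglia library, as given below. The cells are called CD45hi cells here, after the gate.

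Of 25 homeostatic microglia genes 22 were core (88.0%, against 4.21% of all genes), several of them barely so, such as Gpr34 with 11 and 6143 counts and Siglech with 14 and 2337. They were led by Sparc, Serinc3, the cystatin Cst3 (98.5 and 832 FPKM) and the secreted protein Olfml3 (56.3 and 267 FPKM). The purinergic receptor P2ry12 had 226 and 1792 counts in CD45hi cells, against 3260, 10146 and 25191 in microglia, and Tmem119, a microglial membrane protein, had 47 and 737, against 5159, 1463 and 2525. Sall1, which encodes a zinc finger factor that microglia need to stay microglia, had 20 and 49 counts, against 7595, 2208 and 1665. Relative to library totals these 3 genes lay lower in both CD45hi libraries than in every microglia library, as did 48.0% of all genes tested, yet they passed the minimum in both, and none passed the edgeR test (log2 fold changes with TMM of −0.78 for P2ry12, −0.04 for Tmem119 and −2.31 for Sall1). The whole list took 3.15% and 2.12% of CD45hi counts, against 2.69%, 1.86% and 3.26% in microglia, and the groups overlapped. The overlap rested on Sparc, since without it the list took 0.775% and 1.03% of CD45hi counts, against 2.23%, 1.41% and 2.95% in microglia. What part microglia within the CD45hi gate have in these values was not tested.

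Genes of macrophage maturation were read in both libraries for 10 of 23 members. Apoe led, followed by the complement chain C1qc (192 and 779 FPKM), the lipoprotein lipase Lpl (174 and 576 FPKM), the apoptotic cell receptor Mertk (49.9 and 320 FPKM) and the complement chain C1qb (43.0 and 2166 FPKM). All 5 were higher in library LPC_131. The high-affinity IgG receptor Fcgr1 was the reverse, with 7919 and 19 counts, as was Adgre1, the F4/80 antigen, with 7488 and 260 counts. Trem2, a lipid-sensing receptor, had 6 and 1863 counts, and Gpnmb, a glycoprotein of lipid-laden macrophages, had 0 and 1099, so both rest on library LPC_131.

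**Figure D3:**
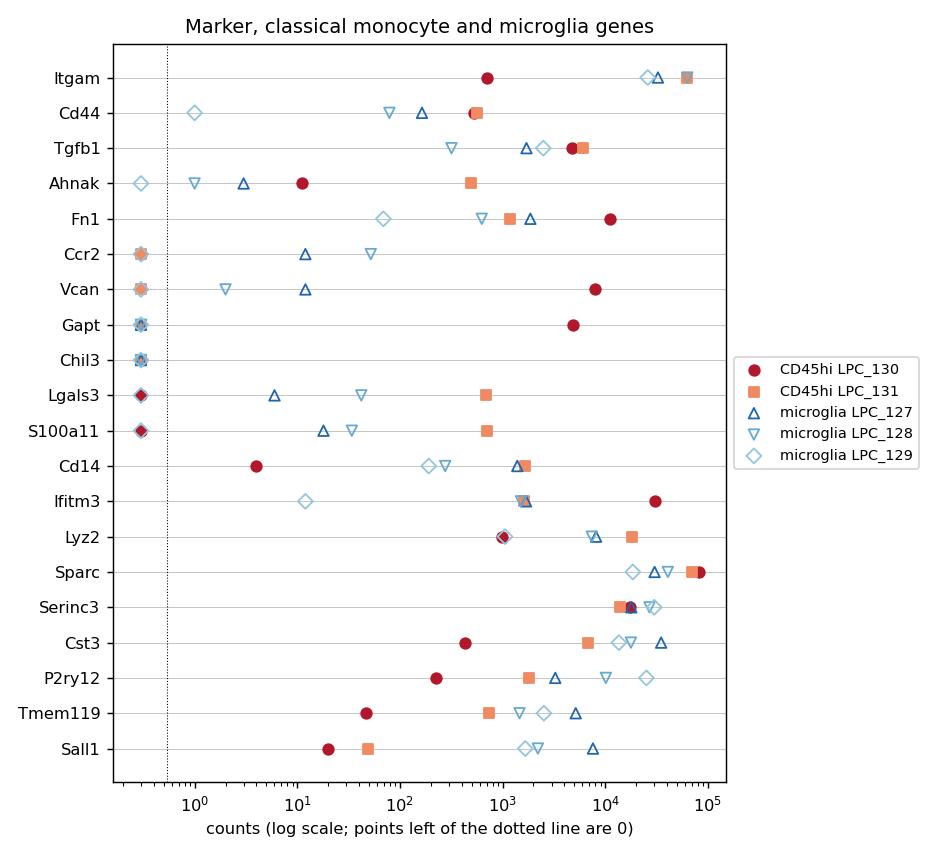
Raw counts (x axis, log scale, zeros drawn left of the dotted line) of the 5 marker genes, 9 classical monocyte genes and 6 homeostatic microglia genes (rows) in CD45hi libraries LPC_130 and LPC_131 (filled symbols) and microglia libraries LPC_127, LPC_128 and LPC_129 (open symbols). Ccr2 and Chil3 have no count in a CD45hi library, Vcan and Gapt are read in library LPC_130 alone, Lgals3 and S100a11 in library LPC_131 alone, and P2ry12, Tmem119 and Sall1 are present in both but below the microglia libraries.

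Lysosomal genes were among the best represented groups, with 26 of 33 listed members in the core set, against 4.21% of all genes. A further 5 had 10 or more counts in library LPC_131 alone and 0 in library LPC_130 alone, against 3179 and 341 of all genes. After Ctsb, Ctss and Ctsd came Asah1, acid ceramidase, at 546 and 253 FPKM, and Psap, the precursor of the saposins that help digest sphingolipids, at 171 and 353 FPKM. Npc2, which moves cholesterol out of the lysosome, had 593 and 199 FPKM. The list took 2.46% and 2.91% of CD45hi counts (mean 2.68% ± 0.321, SD, n = 2), against 4.31%, 2.18% and 1.64% in microglia, and the groups overlapped. In a single CD45hi library no list's exact binomial 95% interval reached further than 0.0519 percentage points, so spread between the libraries, not counting error, set the precision. Much of the rest of the list was carried by library LPC_131: the progranulin gene Grn had 178 and 22160 counts, and Lamp2, a lysosomal membrane protein, had 154 and 11880.

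Genes of engulfment followed the same division, with 15 of 24 core. Rac1 led, then Mertk, Itgam, the inhibitory IgG receptor Fcgr2b (16.7 and 109 FPKM) and the GTPase Cdc42 (476 and 80.7 FPKM). The 2 GTPases were higher in library LPC_130 and the 3 surface receptors in library LPC_131. Pros1, a bridging protein that links apoptotic cells to MERTK, was near equal, at 86.3 and 78.2 FPKM.

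Of 22 lipid handling members 6 were core, against 4.21% of all genes, and 5 more had 10 or more counts in library LPC_131 alone. The core members were Apoe, Lpl, the endocytic receptor Lrp1 (847 and 6629 counts), the cholesterol exporters Abcg1 (7.99 and 44.5 FPKM) and Abca1 (1.13 and 89.4 FPKM), and the desaturase Scd2 (0.590 and 9.74 FPKM). All 6 were higher in library LPC_131, as were 699 of all 1051 core genes. Plin2, which coats lipid droplets, had 0 and 7434 counts, against 233, 388 and 15 in microglia, and Srebf2, the master regulator of cholesterol synthesis, had 2 and 10916, against 1124, 72 and 20. The list took 0.278% and 1.34% of CD45hi counts, against 1.18%, 0.567% and 0.289% in microglia.

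Of 7 core antigen presentation genes 6 were higher in library LPC_131, as were 699 of all 1051 core genes. Of MHC class I, B2m was equal in both libraries, H2-K1 had 559 and 84.8 FPKM and H2-D1 had 3.86 and 117 FPKM. Of class II, the invariant chain Cd74 had 40 and 12302 counts, against 2411, 744 and 19 in microglia, H2-Aa had 24 and 414, against 54, 67 and 0, and H2-Ab1 had 15 and 181. H2-Eb1 had 1 and 4571 counts, against 24, 3 and 4 in microglia. All 4 class II genes therefore rested mainly on library LPC_131. The core members were 7 of 18 on the list, against 4.21% of all genes in the count table.

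Matrix and adhesion genes took a larger share of both CD45hi libraries (3.01% and 2.59%) than of any microglia library (1.73%, 1.55% and 1.11%), and Sparc alone gave 2.38% and 1.08% of the CD45hi counts. Without Sparc the list took 0.636% and 1.51% of CD45hi counts, against 1.27%, 1.10% and 0.797% in microglia, so that library LPC_130 lay below every microglia library. Of 34 members 17 were core. After Sparc the leading members were the tetraspanin Cd81 (44.0 and 411 FPKM), Itgam, the integrin chain Itgb5 (37.1 and 58.7 FPKM) and Spp1, osteopontin (3.02 and 1032 FPKM). Spp1 had 17 and 11083 counts, against 805, 2780 and 38 in microglia. The actin cytoskeleton list had 21 of 39 members core, led by Rac1, the β-actin gene Actb (62.2 and 670 FPKM), the actin-binding peptide Tmsb4x (49.3 and 215 FPKM), Cdc42 and the nucleation factor Actr3 (5.56 and 120 FPKM), and took 0.951% and 0.969% of CD45hi counts, against 1.18%, 0.724% and 0.857% in microglia.

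**Figure D4:**
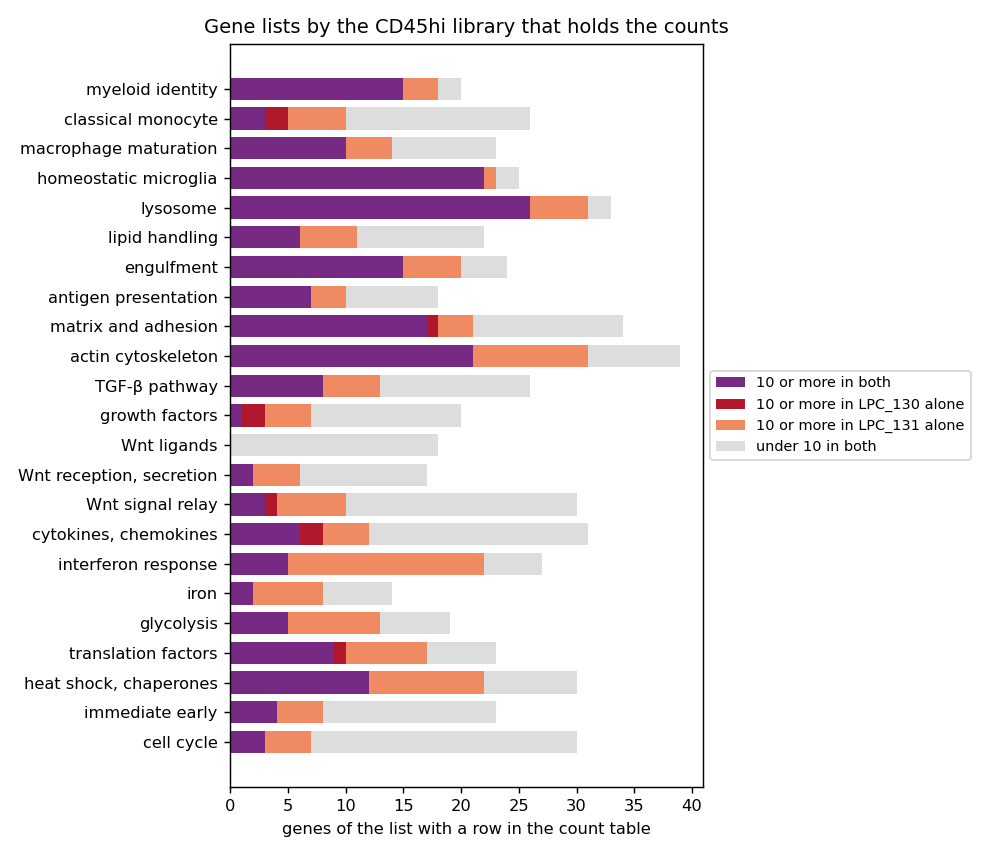
Number of genes (x axis) of 23 gene lists (rows) that had 10 or more counts in both CD45hi libraries, in library LPC_130 alone, in library LPC_131 alone or in neither. Lysosome and homeostatic microglia genes are mostly read in both, interferon response genes mostly in library LPC_131 alone (17 of 27), and no Wnt ligand reached 10 counts in either. Of all 24984 genes 3179 reached 10 counts in library LPC_131 alone and 341 in library LPC_130 alone.

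TGF-β pathway members were core in 8 of 26 cases. Tgfb1 led, then Ski, which represses Smad targets (34.4 and 109 FPKM), the receptors Tgfbr1 (2.69 and 35.9 FPKM) and Tgfbr2 (2.90 and 31.5 FPKM), and Smad2, which carries the signal (0.989 and 19.6 FPKM). Tgfbr1 had 60 and 1527 counts in CD45hi cells, against 7823, 11443 and 25626 in microglia. Relative to library totals the ligand Tgfb1 lay higher and the receptor Tgfbr1 lower in both CD45hi libraries than in every microglia library. Of all genes tested 0.673% lay higher and 48.0% lower in this way, and neither gene passed the edgeR test. Of 20 growth factors known to act on the oligodendrocyte lineage 1, Tgfb1, was core, beside 4.21% of all genes in the count table. Igf1, which promotes oligodendrocyte survival, had 7 and 7500 counts, against 1009, 1786 and 21 in microglia, and Igf2 had 123 and 0.

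Few Wnt genes reached the minimum, and so did few genes at large, since 4.21% of all genes in the count table were core. A list of 18 genes can therefore hold no core gene without standing out. Of 18 Wnt ligands with a row in the count table none had 10 counts in a CD45hi library, the 39 counts of library LPC_130 were spread over 15 ligands with at most 8 on 1 (Wnt1), and library LPC_131 had 1 count in all, on Wnt7b. Microglia had 323, 46 and 211 counts on Wnt ligands, of which Wnt2b took 259, 46 and 211. Of 17 genes of Wnt reception and secretion the co-receptors Lrp5 (108 and 1266 counts) and Lrp6 (10 and 25) were core. The receptors Fzd7 (6 and 156 counts), Ryk (1 and 86) and Fzd4 (1 and 79) and the Wnt carrier Wls (5 and 323) had 10 or more counts in library LPC_131 alone.

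Of 30 genes that relay or answer a Wnt signal 3 were core, beside 4.21% of all genes in the count table. All 3 are parts of the complex that marks β-catenin for breakdown: Apc (18 and 585 counts), Gsk3b (570 and 222) and Csnk1a1 (153 and 22). The β-catenin gene Ctnnb1 had 4 and 194 counts, against 367, 341 and 6 in microglia. The transcription factor Tcf7l2 (4 and 986), the scaffold Axin1 (1 and 628), and the kinases Csnk1d (6 and 479), Gsk3a (2 and 140) and Csnk1e (8 and 10) reached 10 counts in library LPC_131 alone, and Myc, a target gene, in library LPC_130 alone (15 and 4). The share of this list was 0.0238% and 0.0505% of CD45hi counts, against 0.147%, 0.115% and 0.378% in microglia.

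Signals of inflammation were uneven. Of 31 cytokines, chemokines and their receptors 6 were core, led by the chemokines Ccl12 (135 and 625 FPKM), Ccl6 (4.08 and 54.1 FPKM), Ccl9 (1.63 and 15.7 FPKM) and Cxcl10 (84.3 and 8.79 FPKM) and the interleukin-10 receptor chain Il10ra (0.920 and 28.7 FPKM). Of 27 interferon response genes 5 were core, namely Ifitm3, Ifi27l2a (15.2 and 167 FPKM), Lgals3bp (10.3 and 1304 FPKM), Oasl2 (33.6 and 73.5 FPKM) and the receptor chain Ifnar1 (0.946 and 20.7 FPKM). A further 17 reached 10 counts in library LPC_131 alone, among them Irf9, a transcription factor of the interferon signal, with 0 and 4331 counts, and the RNA sensor Ifih1 with 4 and 5988. Over all genes 3179 did so, and 341 reached 10 counts in library LPC_130 alone. Ifitm3 alone gave 0.886% of library LPC_130, nearly the whole 0.913% share of the list there.

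Basic metabolism was poorly covered in library LPC_130. Glycolysis took 0.00571% of library LPC_130 and 0.348% of library LPC_131, against 0.407%, 0.138% and 0.103% in microglia. Gapdh, its best-read core member, had 90 and 16126 counts, and the others were Aldoa (14 and 1002), Pkm (25 and 134), Ldha (12 and 34) and Gpi1 (14 and 38). Iron genes took 0.00173% and 0.128%, against 0.173%, 0.108% and 0.108% in microglia, with the ferritin heavy chain Fth1 (30 and 3621 counts) and the metal transporter Slc11a1 (10 and 1433) core. Library LPC_130 thus lay below every microglia library for both lists and library LPC_131 did not.

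Translation factors were core in 9 of 23 cases, led by Eef1a1 (10.8 and 214 FPKM), Pabpc1 (4.36 and 257), Eef2 (3.21 and 48.8), Tpt1 (2.46 and 47.9) and Eif3a (1.64 and 29.6). Of 93 ribosomal protein genes 31 were core, led by Rps24 (170 and 250 FPKM), Rpl4 (80.8 and 294), Rpl31 (44.9 and 95.7), Rps9 (95.6 and 86.7) and Rpl41 (5.76 and 856), and they took 1.17% and 1.05% of CD45hi counts, against 1.25%, 0.791% and 0.245% in microglia. Of 93 nuclear genes of oxidative phosphorylation 2 were core, beside 4.21% of all genes in the count table. Mitochondrially encoded genes took 39.9% and 28.5% of CD45hi counts, against 11.1%, 39.0% and 17.6% in microglia, and the ribosomal RNAs mt-Rnr1 and mt-Rnr2 alone took 34.2% and 24.5%. The mitochondrial messenger RNAs mt-Co1 (13041 and 8784 FPKM), mt-Nd1 (9238 and 5172) and mt-Nd5 (7049 and 3588) followed.

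Stress and proliferation genes took shares of library LPC_131 within the microglia range and of library LPC_130 below it. Heat shock and chaperone genes were core in 12 of 30 cases, led by Pdia3 (321 and 107 FPKM), Hspa5 (8.79 and 236), Hspa8 (4.83 and 194), Hsp90ab1 (4.49 and 159) and Hsp90b1 (3.85 and 86.3), all protein-folding factors. They took 0.246% and 0.597% of CD45hi counts, against 0.483%, 0.642% and 0.621% in microglia. Of 23 immediate early genes, which can be induced when cells are dissociated, 4 were core: Zfp36 (59.9 and 164 FPKM), Mcl1 (1.54 and 66.3), Rhob (2.11 and 9.53) and Btg2 (1.07 and 9.40). Immediate early genes took 0.0233% and 0.126% of CD45hi counts, against 0.229%, 0.0948% and 0.343% in microglia. Of 30 cell cycle genes 3 were core: Mki67 had 18 and 1466 counts, Cdk6 had 21 and 5654, and Top2a had 21 and 16. The cell cycle list took 0.00293% and 0.120% of CD45hi counts, against 0.0946%, 0.135% and 0.0633% in microglia.

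**Figure D5:**
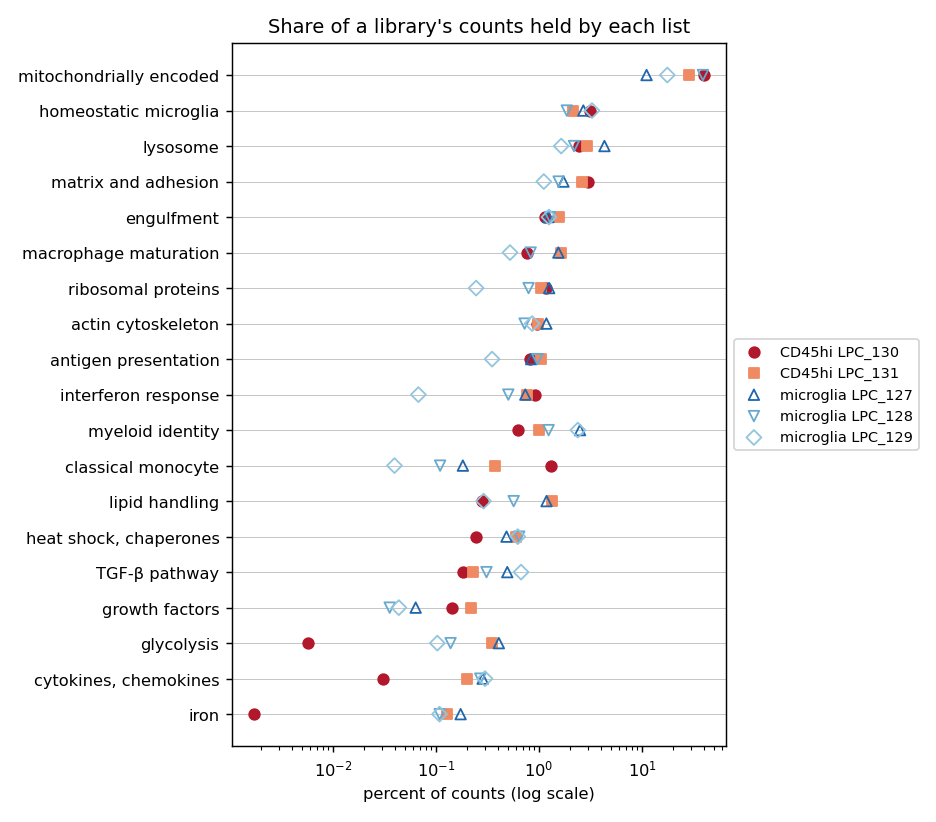
Percent of all counts (x axis, log scale) that each of 19 gene lists (rows) took in CD45hi libraries LPC_130 and LPC_131 (filled symbols) and microglia libraries LPC_127, LPC_128 and LPC_129 (open symbols). Both CD45hi libraries lie to the right of all microglia libraries for matrix and adhesion, classical monocyte, interferon response and growth factor lists, and to the left for myeloid identity, TGF-β pathway and cytokine lists, while library LPC_130 stands far to the left for glycolysis and iron.

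Over all 40 lists the CD45hi libraries lay above every microglia library in share of counts for 6, below for 7, and overlapped for 27. With 2 libraries against 3 the smallest p of an exact permutation test is 0.1, so these differences got no test. The classical monocyte list lay above, at 1.29% and 0.371%, against 0.182%, 0.109% and 0.0395% in microglia, but Ifitm3 with Vcan gave most of it in library LPC_130 and Lyz2 in library LPC_131. The growth factor list lay above too, at 0.143% and 0.221%, against 0.0634%, 0.0355% and 0.0435%, through Tgfb1 in library LPC_130 and through Tgfb1 with Igf1 in library LPC_131.

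Marker genes of other cell types were read in both libraries about as seldom as genes at large. Of 108 such genes with a row in the count table, on 13 lists, 44 had no count in either CD45hi library (40.7%, against 45.6% of all genes) and 3 were core (2.78%, against 4.21%). In share of counts the astrocyte list lay above every microglia library (0.219% and 0.111%, against 0.0844%, 0.0423% and 0.0491%), as did the neuron list (0.00363% and 0.00190%, against 0.00160%, 0.000277% and 0). In each library a single gene gave most of either list, and not the same gene in both. For the astrocyte list it was Nfib in library LPC_130 (7453 of 7482 counts) and Glul in library LPC_131 (6866 of 7200). For the neuron list it was Tubb3 in library LPC_130 (105 of 124) and Map2 in library LPC_131 (122 of 124). The 3 core genes were Glul (astrocyte list, 20 and 6866 counts), Ighm (B cell list, 26 and 3447) and Bsg (endothelial list, 214 and 3435), and microglia held 2740 to 4951, 2536 to 4322 and 883 to 2418 counts of them. Defining genes were at 0 in both, including Ly6g of neutrophils, Cd4 of T cells and Olig2 and Sox10 of the oligodendrocyte lineage.

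A further 13 genes had 10 or more counts in 1 CD45hi library alone. In library LPC_130 these were Nfib (astrocyte list, 7453 and 0 counts), Vcan (also on the precursor list), Igf2 (meningeal list, 123 and 0) and Tubb3 (neuron list, 105 and 1). In library LPC_131 they were Flt1 and Acta2 of the endothelial and mural list (1 and 3205, 0 and 20 counts), Xbp1 of the B cell list (3 and 2660), Il7r of the T cell list (2 and 2371), Acta1 of the muscle list (6 and 368), Slc1a2 and Slc1a3 of the astrocyte list (0 and 269, 5 and 65), Map2 of the neuron list (1 and 122) and Cspg4 of the precursor list (8 and 85). The best-read genes of the remaining lists had at most 4 counts in a CD45hi library, namely Mbp (3 and 3) and Cnp (2 and 4) of oligodendrocytes, Mpo and Cxcr2 of neutrophils (1 and 0 each), Kl of choroid plexus (3 and 0), Alas2 of erythroid cells (1 and 0) and Dsp of keratinocytes (3 and 0). The part of such cells in other results was not tested.

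Beside the core set stand genes that rest on 1 library. Library LPC_130 had 110 genes with 10 or more counts that were at 0 in library LPC_131, and they took 3.90% of its counts. Library LPC_131 had 857 such genes at 0 in library LPC_130, and they took 6.15% of its counts. The 2 sets differ in what microglia hold: 13 of 110 (11.8%) had 10 or more counts in every microglia library for library LPC_130, against 324 of 857 (37.8%) for library LPC_131, while 38 of 110 and 26 of 857 had no count in any microglia library.

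Of the genes of library LPC_130 alone, leaving out predicted genes, Ttc25, a protein of motile cilia, had the most counts, 10324, which is at least 6561-fold above the limit for library LPC_131. Vcan was at least 5088-fold and the transcription factor Nfib at least 4736-fold above it. The next were Shisa3 (5267 counts), the scaffold Pdzk1 (5194), Gapt (4884), Maip1 (4177), Ndufaf1, an assembly factor of respiratory complex I (3845), the cytochrome Cyp2c66 (2047) and the transcription repressor Dr1 (1260). Ttc25, Nfib, Pdzk1, Gapt and Cyp2c66 had 0 counts in all 3 microglia libraries as well.

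Of the genes of library LPC_131 alone, again without predicted genes, the general transcription factor Gtf2a2 had the most counts, 10887, at least 1904-fold above the limit for library LPC_130. Plin2 (7434 counts) was at least 1300-fold above it, and Rer1, which retrieves proteins to the endoplasmic reticulum (6691 counts), at least 1170-fold. Others were the mitochondrial ribosomal protein Mrps25 (4995), Irf9 (4331), the deubiquitinase Usp14 (4133), Fbxw4 (3867) and the splicing factor Smu1 (3772). Each of the genes named here had at least 6 counts in every microglia library. A count of 0 in library LPC_130 allows a level up to the limit given above and does not show absence.

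CD45hi cells were last compared with microglia across all genes, by edgeR's quasi-likelihood test on the counts with TMM scaling and Benjamini-Hochberg adjustment over 10105 genes. 6 genes passed an adjusted p under 0.05 as higher in CD45hi cells (0.0594% of the genes tested) and 0 as lower (339 genes, 3.35%, at an unadjusted p under 0.05). The number lower was 0 with limma-voom also and 100 with DESeq2, which called 987 higher. Of 1051 core genes 4 were higher and 0 lower, and since a core gene had to be read in both CD45hi libraries their direction was favored by the choice. At an unadjusted p under 0.05 the count was 242 core genes higher and 0 lower, against 861 (8.52%) higher over all genes tested. Both CD45hi libraries lay above every microglia library in CPM for 62 of the 1051 core genes and below for 342. Over all 10105 genes tested the numbers were 68 (0.673%) and 4852 (48.0%). Most of the 68 were thus core genes, a place that the minimum in both CD45hi libraries favors. A p measures the spread between these 5 libraries, which the study counts as mice but whose labels name no mouse, so that part of it may be technical.

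The 4 core genes were Ahnak and 3 genes named as pseudogenes. The log2 fold change of Ahnak was 10.17 ± 2.43 (SE), with an adjusted p of 0.0479 by edgeR, and the ratio of pooled CPM was 274 (95% counting interval 106 to 1009). That ratio rests on library LPC_131 with 494 counts, since library LPC_130 had 11, near the minimum of 10. Gm12994, a processed pseudogene at chr4:116852664-116853110, had 92 and 104 counts in CD45hi cells, against 0 in each microglia library, which makes it at least 31.3-fold higher (adjusted p = 0.0101 from edgeR). Tpt1-ps2, at chr4:54564623-54565143, had 25 and 65 counts, against 0 in each microglia library, at least 14.4-fold higher (adjusted p = 0.0201). Rpl31-ps12, with no position in the annotation used, had 30 and 135 counts, against 1, 2 and 0 in microglia, a pooled ratio of 119 (40.1 to 584; adjusted p = 0.0479). These 4 genes had at most 3 counts in a microglia library and met the filter of the test through the CD45hi libraries alone. Their direction was thus favored by the choice, and their p-values and folds are no separate support for a difference. Pseudogenes share sequence with their parent genes, so how reads were divided between them is uncertain. The other 2 genes called were Vcan, read in library LPC_130 alone, and Acta1, skeletal muscle actin, with 6 and 368 counts, against 0, 1 and 0 in microglia.

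These calls were not stable. With library totals in place of TMM 0 genes passed, and 0 passed when any 1 of the 3 microglia libraries was left out, whereas 343 and 326 genes passed as higher without CD45hi libraries LPC_130 and LPC_131, fits in which the lone CD45hi library is assumed to vary as microglia do. The TMM factors were 0.0929 and 0.611 for CD45hi libraries, against 3.76, 2.73 and 1.71 for microglia, and the median log2 fold change of all genes tested was −1.11 with TMM, −0.63 with relative log expression factors and −4.73 with library totals. Of the 5 markers and 3 pseudogenes only Itgam changed sign between these scalings. Ahnak did not pass by edgeR with relative log expression factors (adjusted p = 0.0764) or with library totals (adjusted p = 0.126). It passed by edgeR without a filter (adjusted p = 0.0201), with limma-voom (adjusted p = 0.0176) and with DESeq2 (adjusted p = 9.79e-08). Of the other markers Cd44 differed by a log2 value of 8.12 ± 2.51 (SE) with an edgeR adjusted p of 0.110, and none of the 4 passed with edgeR. The log2 values were 6.26 ± 2.65 for Tgfb1 (adjusted p = 0.278), 8.99 ± 3.09 for Fn1 (adjusted p = 0.158) and 2.06 ± 2.33 for Itgam (adjusted p = 0.670), all by edgeR. Cd44, Fn1 and Tgfb1 passed with limma-voom (adjusted p = 0.0234, 0.0293 and 0.0498), with DESeq2 (adjusted p = 2.66e-05, 7.04e-06 and 0.0021) and with edgeR without library LPC_131 (adjusted p = 0.000324, 4.28e-05 and 0.00607). Over all 10 alternatives the adjusted p ran up to 0.472 for Cd44, 0.525 for Fn1 and 0.511 for Tgfb1. Itgam turned to −0.16 with library totals and −0.94 without library LPC_131.

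By list no gene of the homeostatic microglia list or of the lysosome list passed in either direction (edgeR, 25 and 33 tested). At an unadjusted p under 0.05 from edgeR 1 and 2 genes were higher and 0 lower. Over all genes tested 8.52% were higher and 3.35% lower at that threshold, so these numbers do not set the lists apart. Their median log2 fold changes were 0.40 and 1.53 with TMM, beside −1.11 over all genes, and −2.25 and −1.01 with library totals, beside −4.73. Of 13 classical monocyte genes tested 1, Vcan, was higher and 0 lower, beside 0.0594% higher and 0 lower over all genes tested. Vcan had 8006 and 0 counts in the CD45hi libraries, so this call rests on library LPC_130. The median of the list was 2.91 with TMM and 0.48 with library totals. Of 25 matrix and adhesion genes tested the only one that passed was Vcan, the same call of library LPC_130 and not a further result. The median of this list changed sign, from 1.30 with TMM to −1.80 with library totals.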

How the data were processed

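Gene counts and FPKM values of 5 RNA libraries were used as deposited. Per the study's methods, the authors aligned reads with STAR 2.5.2a to GRCm38 with a GENCODE annotation, and the deposited counts are whole reads per gene with no normalization. The deposited FPKM values are the authors' own, scaled for gene length and library total. A deposited table of log2 CPM and tables of the authors' own comparisons (fold changes and p-values) were not used, nor were 4 columns of other samples in each table.

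Libraries held 3417150 to 9021700 counts. Core genes had 10 or more counts in both CD45hi libraries. CD45hi cells were compared with microglia by edgeR 4.0.16 (quasi-likelihood, TMM, R 4.3.3). The method was also run on simulated counts, but with a far smaller spread between libraries (dispersion) than the 1.57 estimated here. That run therefore does not show the power or error of the test in these libraries. Alternatives used DESeq2 1.42.0, limma 3.58.1, other scalings and filters, and leaving out each library. Intervals are exact (Clopper-Pearson) binomial at 95%. Positions come from a later GENCODE release on GRCm38, and promoters from RefSeq. Text and figures were computed in Python 3.11.15.

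Genes named were the 5 markers, the 20 leading core genes, up to 5 leading core members of each of 40 lists, the best-read gene of each list of other cell types, Wnt genes with 10 or more counts, the 10 genes with most counts in 1 library alone, and core genes that passed the test. Further list members and the most unequal genes were chosen after their values were seen. Members and lists were chosen with earlier results of these data known. Some genes that this rule would name are not reported here.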

Additional observations from a re-analysis of the deposited data

How the results depend on the processing

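Core genes numbered 2001, 611 and 396 at minimums of 5, 20 and 50 counts, and 1392 to 4230 with 1 CD45hi library alone. Rank agreement (rho) was 0.0674 over all genes with a read, 0.20 with CPM, 0.23 at a minimum of 50 counts and 0.26 without mitochondrial and ribosomal protein genes, and 45.2% of genes lay within 4-fold at that minimum. Averaged over the CD45hi libraries, the mitochondrial share was 57.6% by FPKM sums. With mitochondrial genes left out of the total and by FPKM sums, the lysosome share was 4.08% and 1.93%, the homeostatic microglia share 4.10% and 1.61%, the ribosomal protein share 1.70% and 1.39%, and the matrix and adhesion share 4.32% and 1.48%. Without Sparc, an alternative chosen after seeing the data, the homeostatic microglia share was 0.904% and the matrix and adhesion share 1.07%.

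Genes higher in CD45hi cells than in microglia numbered 0 with library totals, 70 without a filter, 32 with limma-voom and 987 with DESeq2 (100 lower), and 0 to 343 when 1 library was left out. Itgam turned to −0.16 with library totals and −0.94 without CD45hi library LPC_131, and ran from −0.94 to 2.57 when 1 library was left out. With library totals and with relative log expression factors, median log2 fold changes were −1.01 and 2.29 for lysosome, −2.25 and 1.04 for homeostatic microglia, 0.48 and 3.99 for classical monocyte and −1.22 and 2.42 for ribosomal protein genes, so 3 of these 4 turned with library totals. The causes were not tested. No paired analysis was possible because the groups share no replicate number.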
